A study of Sus scrofa with 8 samples.

Results

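Cytosolic ribosomal protein genes encode the proteins of the ribosome that translates nuclear messenger RNAs. The genes described here are the protein-coding rows of the deposited pig gene table whose symbols follow the RPL, RPLP or RPS naming of ribosomal proteins, together with RPSA and FAU. The rule found 84 of 30550 rows, 51 of the large (60S) and 33 of the small (40S) subunit, with 83 different symbols because RPL18 is listed in 2 rows. RPL36AL, which also encodes a ribosomal protein, falls outside the naming rule. The tissue was right ventricle of pigs (Sus scrofa), with 4 libraries of a heterozygous PKP2 knockout (PKP2_het) and 4 wild-type libraries (WT), and the series title names the knockout as a pig model for arrhythmogenic cardiomyopathy, a hereditary disease of the heart muscle. PKP2 encodes plakophilin 2 of the desmosomes, the junctions that hold heart muscle cells together. The labels give no breed, age, sex, founder line or number of animals, so the p-values below measure spread among libraries, which may be technical. A label says cardiomyocytes, but the protocol describes ventricular tissue.

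A ribosome holds 1 copy of nearly every ribosomal protein, and the cell makes the proteins of both subunits in matched amounts. Their messenger RNAs are short, abundant and carry a pyrimidine-rich start (the TOP motif) through which mTORC1 signalling controls their translation together. Surplus ribosomal proteins that find no ribosomal RNA are degraded by the proteasome. In heart muscle, ribosome production is part of the growth response, and RPL3L replaces the general form RPL3 in part of the ribosomes of striated muscle. The messenger RNA levels measured here do not give translation or the number of ribosomes.

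The libraries held between 23637697 and 31313628 fragments assigned to genes. Levels are FPKM, fragments per gene length and library size, and the deposited values are scaled so that the median gene has the same level in each library. PKP2 itself averaged 39.2 ± 9.99 in PKP2_het and 62.2 ± 8.17 in WT (FPKM, SD, n = 4 each) without overlap, and its limma adjusted p was 0.164. PKP2_het replicate 3 stood apart, with 52.1% of its fragments from mitochondrially encoded genes against 21.1% to 37.6% in the other 7 libraries, so results are given with and without it. Cardiomyocyte markers summed to 25585 to 34744 FPKM in PKP2_het and 26759 to 29954 FPKM in WT, with all 10 genes detected. Endothelial, fibroblast and smooth muscle markers were also present, with summed levels of 202 to 466 FPKM in PKP2_het and 231 to 479.9 FPKM in WT. Macrophage markers summed to 19.6 to 56.9 FPKM in PKP2_het and 37.0 to 52.2 FPKM in WT, and erythroid markers to 92.3 to 437 and 52.8 to 515 FPKM. The 2 lists whose sums did not overlap were fast skeletal muscle and neutrophil. Fast skeletal muscle markers summed to 0.941 to 3.08 FPKM in PKP2_het and 5.71 to 55.7 FPKM in WT. Only 1 of these 6 markers was tested, at a mean of 14.4 FPKM over the libraries. Limma called it lower in PKP2_het, with a log2 fold change (PKP2_het over WT) of -2.95. Neutrophil markers summed to 0.185 to 0.496 and 0.591 to 2.41 FPKM, with 1 of 5 genes at 0 in every library and 0 tested. Atrial muscle markers set 2 libraries apart, PKP2_het 1 (652 FPKM) and WT 3 (1165 FPKM), while the remaining 6 ran from 6.42 to 115 FPKM. All 7 endothelial and all 6 tested macrophage markers had a negative log2 fold change (PKP2_het over WT), with medians of -0.29 and -0.45 and 0 called by limma (0 and 1 with an unadjusted p under 0.05). The part of these cell types in the results below was not tested. In bulk tissue, fewer cells of a type and less RNA per cell cannot be told apart.

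No cytosolic ribosomal protein gene passed the test between PKP2_het and WT. Of 84 genes, 82 reached 1 FPKM in at least 4 of 8 libraries and were tested on log2(FPKM + 1) with limma across 10757 genes, and 0 had a Benjamini-Hochberg adjusted p under 0.05. Among all genes tested 1.15% were called higher and 0.707% lower in PKP2_het, 1.86% in all. An unadjusted p under 0.05 was found for 3 members, RPL10A, RPLP1 and RPL36A, against 12.8% of all genes tested. The log2 fold change (PKP2_het over WT) was positive for 80 of the 82 and negative for RPS9 and RPS21 at the deposited scaling, but positive for 36 of 82 with libraries rescaled to equal sums. At the deposited scaling 45.7% of all genes tested were positive. Its median was 0.24 over the members and -0.02 over all genes tested, and members ran from -0.14 to 0.48. The members' shared sign is not 82 separate observations, because these genes moved together from library to library. Without PKP2_het replicate 3 the median was 0.12 and 76 of 82 were positive, against 51.5% of all genes. In that fit 0 members were called, against 1.81% of all genes called higher, 1.11% lower and 2.92% in all. With libraries rescaled to equal sums the members' median was -0.03, against -0.23 over all genes. Those sums include the mitochondrially encoded genes. With equal sums of nuclear genes alone the members' median was 0.17 and 79 of 82 were positive. Signs below therefore refer to the deposited scaling.

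The 2 rows without a test were RPL10L and the second RPL18 row (gene 751868). RPL10L, a retrocopy of RPL10 known from the testis, had 0 fragments in all 8 libraries. The limit of 3 fragments corresponds to 0.0986 to 0.146 FPKM for RPL10L and to 0.156 to 0.232 FPKM for the second RPL18 row, which also had 0 fragments throughout. Limits of this kind cover counting error only.

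**Figure D1:**
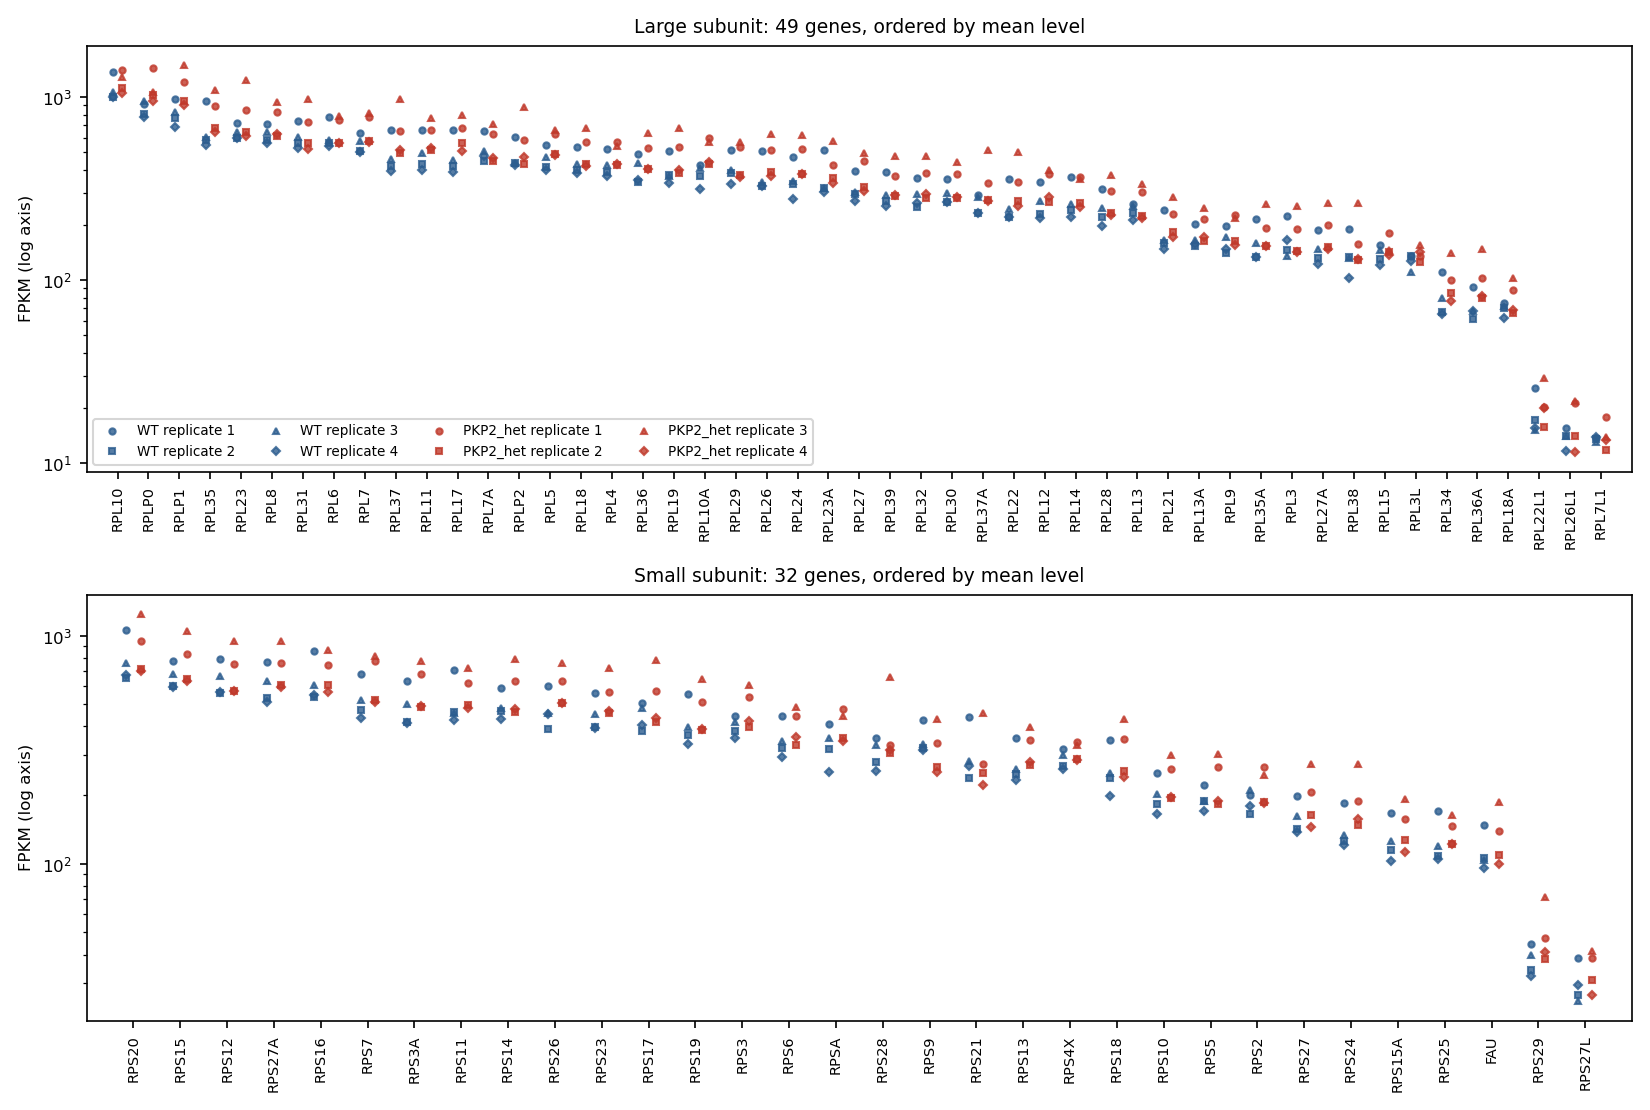
FPKM of 81 of the 82 tested ribosomal protein genes on a log10 axis, ordered by mean level within the large and the small subunit, with 1 point for each of the 4 PKP2_het and 4 WT libraries. The points of both groups lie among each other for nearly every gene, and levels run from about 14 FPKM for RPL7L1 to over 1000 FPKM for RPL10.

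Levels per gene length differed widely although a ribosome holds most of these proteins in equal numbers. In the large subunit the highest means over 8 libraries were RPL10 at 1163 FPKM, RPLP0 at 989 FPKM and RPLP1 at 976 FPKM, and in the small subunit RPS20 at 842 FPKM and RPS15 at 726 FPKM. RPL10 completes the 60S subunit late in its assembly, and RPS20 and RPS15 sit in the head of the 40S subunit. RPL10 was at 1404, 1119, 1284 and 1052 FPKM in PKP2_het replicates 1 to 4 and at 1375, 1000.3, 1064 and 1003 FPKM in WT replicates 1 to 4. The ranges overlapped, and the log2 fold change was 0.13 ± 0.17 (SE; limma adjusted p 0.758).

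The lowest tested members of the large subunit were the paralogues RPL22L1 at 19.9 FPKM, RPL26L1 at 15.5 FPKM and RPL7L1 at 13.9 FPKM. Those of the small subunit were FAU at 123 FPKM, which encodes RPS30 fused to a ubiquitin-like protein, RPS29 at 43.5 FPKM and the RPS27 paralogue RPS27L at 32.1 FPKM. The annotated length of some members is far longer than a ribosomal protein messenger, 1695 bases for RPS29 and 5903 bases for RPS2, and a long annotated length lowers the level per length. Differences in FPKM between members therefore mix abundance with annotation.

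The members shared 1 pattern over the 8 libraries that divided both genotypes. The median deviation of the 82 genes from their own mean was, on the log2 scale, 0.25, -0.13, 0.52 and -0.15 in PKP2_het replicates 1 to 4 and 0.22, -0.25, -0.12 and -0.33 in WT replicates 1 to 4. Libraries PKP2_het 3, PKP2_het 1 and WT 1 were thus high, PKP2_het 2 and 4 lay with WT 3, and WT 4 was lowest. PKP2_het 3 was the highest of 8 libraries for 70 members, PKP2_het 1 for 11 and WT 1 for 1. WT 1 was the highest WT library for 79 members, and WT 4 was the lowest of all 8 for 58.

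Counted against single WT libraries, the same split appeared within the knockout group. PKP2_het 1 lay above WT 1 for 51 members and PKP2_het 3 for 78, whereas PKP2_het 2 did for 2 and PKP2_het 4 for 3. Against WT 3, the counts were 80, 38, 81 and 34 for PKP2_het 1 to 4. Against WT 4, the lowest library, they were 82, 76, 81 and 74.

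**Figure D2:**
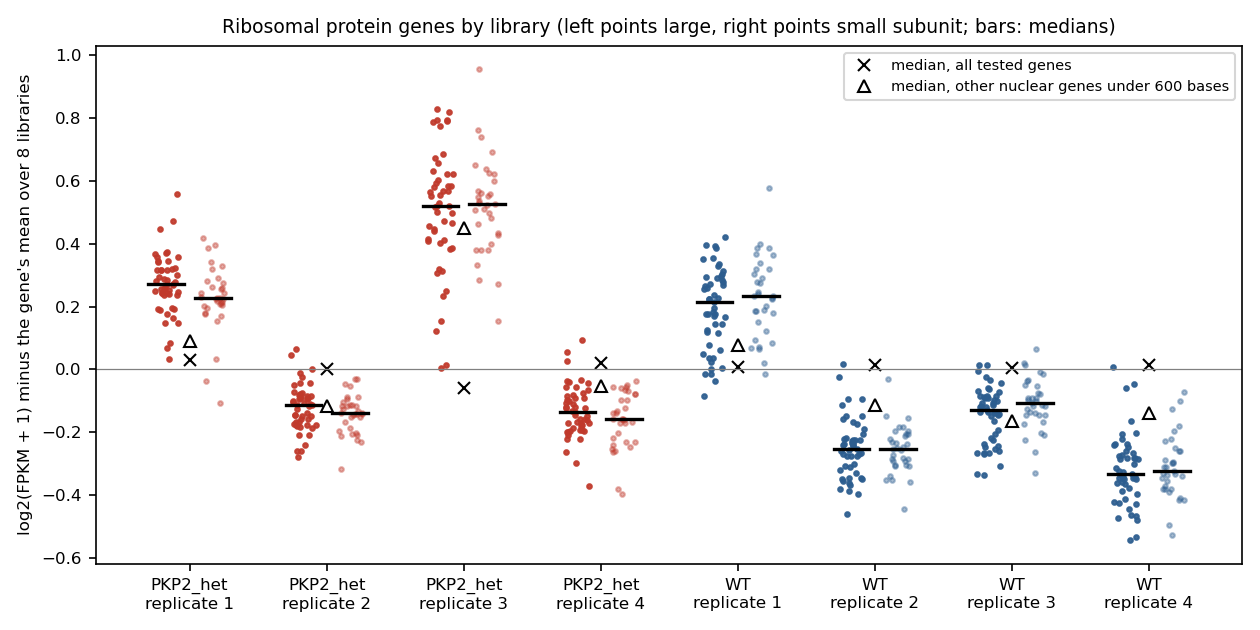
Log2 deviation of each tested ribosomal protein gene from its mean over 8 libraries, by library (left points large, right points small subunit, bars their medians), with crosses for the median of all tested genes and triangles for that of other nuclear genes under 600 bases. The ribosomal protein genes are high in PKP2_het 3 (0.52), PKP2_het 1 (0.25) and WT 1 (0.22) and low in WT 4 (-0.33), and both subunits show nearly the same values.

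The genes were tightly bound to each other in this pattern. As a description over 8 libraries that they all share, the median pairwise Pearson r was 0.919 between members. After each library was scaled to the geometric mean of the members, a scaling added after seeing the data, the median r was -0.01. This scaling takes out what the members share, so an r near 0 follows from it and is no finding about the genes. The median SD of a member over the libraries was 0.31 (log2) at the deposited scaling, against 0.21 for all genes tested. With member scaling the members' median SD was 0.10, a fall that the scaling also brings about. The genes that followed the others least were RPL7L1 (r = 0.41 to the mean of the others), RPL3L (0.60), RPLP0 (0.64) and RPL15 (0.68).

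Other short genes and mitochondrially encoded genes varied over the libraries beside the members. The median deviation of 234 other nuclear genes under 600 bases was 0.09, -0.11, 0.45 and -0.05 in PKP2_het 1 to 4 and 0.08, -0.11, -0.16 and -0.14 in WT 1 to 4. Their median log2 fold change was 0.20, with 162 of 234 positive, against 0.12 for 527 genes of 600 to 1000 bases and -0.03 for 9885 longer genes. Without PKP2_het 3 these medians were 0.07, with 144 of 234 positive, 0.06 and 0.00. The median annotated length of the members was 778 bases and that of all genes tested 3347 bases. The 29 mitochondrially encoded genes tested deviated by -0.33, -0.61, 1.44 and 0.33 in PKP2_het and by 0.46, -0.38, -0.43 and -0.41 in WT. The part of transcript length and of mitochondrial RNA in the members' levels was not tested beyond one alternative, removal of a length trend in each library, under which the members' median was 0.10 and 73 of 82 were positive.

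As a share of all FPKM the members overlapped between the groups. They made up 6.54%, 6.16%, 4.28% and 4.15% in PKP2_het replicates 1 to 4 and 5.04%, 5.04%, 6.11% and 4.83% in WT replicates 1 to 4. The means were 5.28% ± 1.24 and 5.25% ± 0.577 (SD, n = 4 each). Of nuclear FPKM alone the shares were 11.1% ± 2.02 in PKP2_het and 9.76% ± 1.495 in WT, again with overlapping libraries. PKP2_het 3, among the lowest by the first measure, was the highest by the second, at 13.8%.

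The large subunit was compared with the small one by fold changes and, within each library, by the ratio of summed FPKM. The scaling of libraries does not enter that ratio. All 49 tested large subunit genes and 31 of 33 small subunit genes were positive at the deposited scaling, with median log2 fold changes of 0.25 and 0.24. Without PKP2_het 3 the medians were 0.14 and 0.10, with 46 of 49 and 30 of 33 positive. Summed FPKM of the large over the small subunit was 1.55, 1.53, 1.46 and 1.51 in PKP2_het 1 to 4 and 1.43, 1.48, 1.44 and 1.46 in WT 1 to 4. The means were 1.51 ± 0.0357 and 1.45 ± 0.0223 (SD, n = 4 each), 1.04 times higher in PKP2_het, and only PKP2_het 3 lay within the WT range. Without the 3 most abundant genes of each subunit the ratio was 1.53 ± 0.0134 against 1.48 ± 0.0191 and the groups did not overlap, while without RPLP0, RPLP1 and RPLP2 it was 1.31 ± 0.0239 against 1.27 ± 0.0158 with overlap. These ratios are descriptions, and no p was computed for them.

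**Figure D3:**
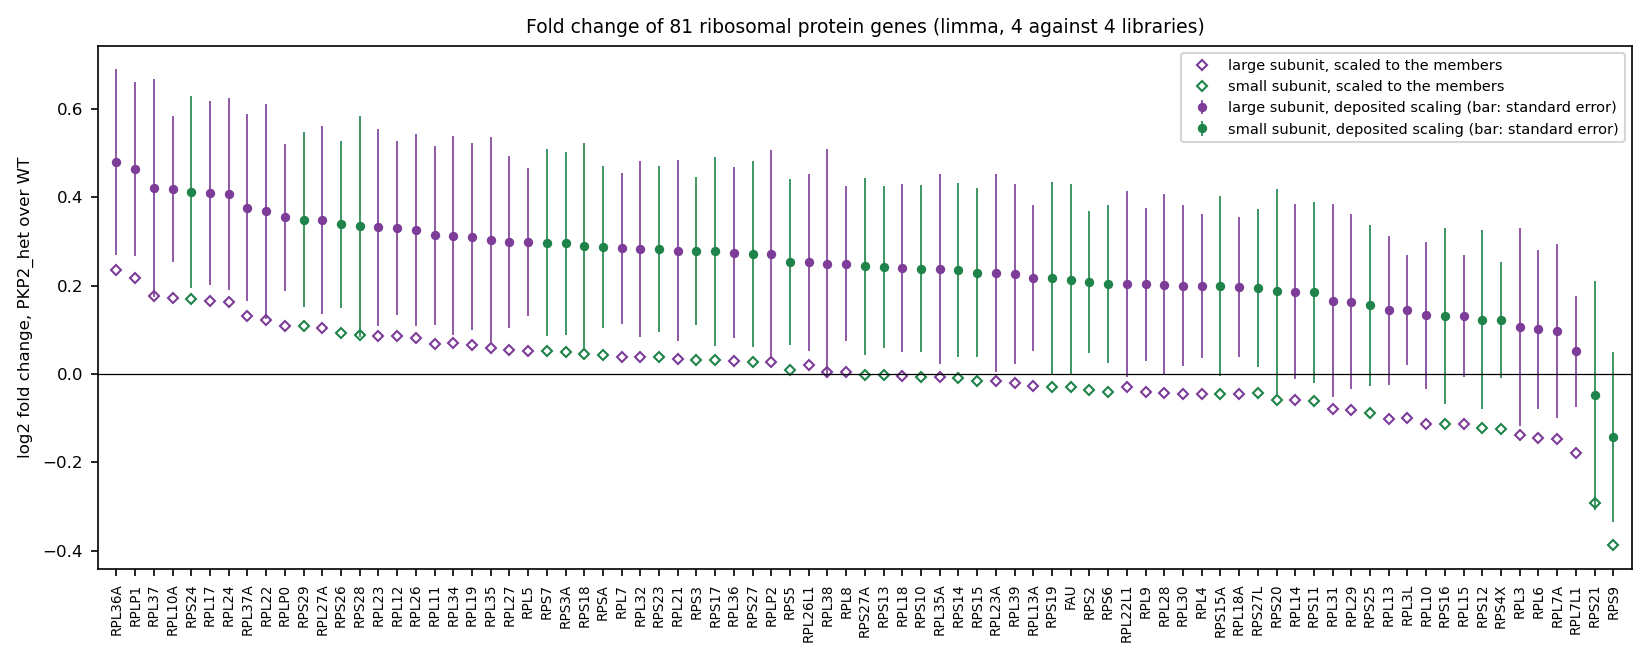
Log2 fold change (PKP2_het over WT, limma on log2(FPKM + 1)) with its standard error for 81 of the 82 tested genes, coloured by subunit; filled points are at the deposited scaling and open diamonds are scaled to the members. At the deposited scaling all but RPS9 (-0.14) and RPS21 (-0.05) lie above 0, the highest is RPL36A at 0.48, and none passed the adjusted threshold. Scaled to the members, 40 of the 82 tested genes were positive and 42 negative. With equal library sums, which are not plotted, 36 of 82 were positive.

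The P stalk recruits the translation factors that hydrolyse GTP on the ribosome. It is built of RPLP0, which anchors it, the paired proteins RPLP1 and RPLP2, and RPL12 at its base. RPLP1 was at 1204, 950.1, 1496 and 901 FPKM in PKP2_het and at 974, 771, 824 and 688 FPKM in WT. PKP2_het 2 and 4 lay below WT 1 and above the other WT libraries, so the groups overlapped. The log2 fold change was 0.46 ± 0.20 (SE), with a limma adjusted p of 0.36 and an exact two-sided permutation p of 0.0857 over 70 relabellings. Without PKP2_het 3 it was 0.32.

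RPLP0, a common reference gene of quantitative PCR, was at 1433, 1019, 1059 and 949 FPKM in PKP2_het and at 917, 809, 950.2 and 779 FPKM in WT. The groups overlapped by the smallest of margins, PKP2_het 4 lying just under WT 3. Its log2 fold change was 0.35 ± 0.17 (SE; limma adjusted p 0.419, exact permutation p 0.0571), and 0.37 without PKP2_het 3. RPLP2 was at 579, 432, 884 and 471 FPKM in PKP2_het against 606, 434, 438 and 425 FPKM in WT, with a log2 fold change of 0.27 that was 0.06 without PKP2_het 3. RPL12 averaged 333 ± 67.0 in PKP2_het and 265 ± 57.5 in WT (FPKM, SD, n = 4 each), with 0.33 ± 0.20 (SE; limma adjusted p 0.536) as its log2 fold change. All 4 stalk genes were positive, with a median of 0.34, or 0.28 without PKP2_het 3, and 0 were called.

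RPL5 and RPL11 form a particle with 5S ribosomal RNA that binds MDM2 and so links faults in ribosome assembly to p53. RPL5 was at 626, 487, 658 and 484 FPKM in PKP2_het and at 549.5, 416, 467 and 397 FPKM in WT. RPL11 was at 657, 511, 771 and 524 FPKM in PKP2_het and at 662, 433, 495 and 399.7 FPKM in WT. Both overlapped through WT 1. Their log2 fold changes were 0.30 ± 0.17 and 0.31 ± 0.20 (SE), with limma adjusted p of 0.515 and 0.569, and they were 0.22 and 0.20 without PKP2_het 3.

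RPL10A was the only member whose groups did not overlap at the deposited scaling, where 4.86% of all genes tested lay higher and 4.33% lower in PKP2_het without overlap. RPL10A is the protein of the L1 stalk, where the transfer RNA leaves the ribosome. It was at 594, 428, 568 and 443 FPKM in PKP2_het and at 424, 368, 409 and 313 FPKM in WT. The margin was small, PKP2_het 2 at 428 FPKM above WT 1 at 424 FPKM. The log2 fold change was 0.42 ± 0.17 (SE), the exact permutation p was 0.0286, which is the smallest that 70 relabellings can give, and the limma adjusted p was 0.316. Without PKP2_het 3 the log2 fold change was 0.36. Relative to the geometric mean of the members, RPL10A was at 1.58 ± 0.154 in PKP2_het and 1.40 ± 0.134 in WT (SD, n = 4 each), which overlapped.

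RPL36A, close to the exit site of transfer RNA, had the largest log2 fold change of any member with all 8 libraries, 0.48 ± 0.21 (SE; limma adjusted p 0.379). Without PKP2_het 3 it was 0.30, below RPLP0, RPL10A and RPLP1. It was at 103, 80.3, 147 and 82.1 FPKM in PKP2_het and at 91.9, 61.1, 68.0 and 67.8 FPKM in WT. WT 1 lay above PKP2_het 2 and 4. RPL37, RPS24, RPL17 and RPL24 followed at 0.42, 0.41, 0.41 and 0.41, with limma adjusted p from 0.458 to 0.53, and all overlapped. Without PKP2_het 3 they were 0.22, 0.23, 0.29 and 0.27. RPS24, like RPL5, RPL11 and RPS19, is a gene in which loss of 1 copy causes Diamond-Blackfan anaemia, an inherited failure of red cell production. The 19 such genes tested were all positive with a median of 0.30 and 0 called, but without PKP2_het 3 the median was 0.15 and 18 were positive.

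RPS6, RPSA, RPS27A, FAU, RPS19 and RPS4X, all of the small subunit, overlapped between the groups. RPS6, whose protein S6 kinase phosphorylates downstream of mTORC1, was at 445, 332, 485 and 358 FPKM in PKP2_het and at 442, 323, 346 and 293 FPKM in WT, with a log2 fold change of 0.20 ± 0.18 (SE; limma adjusted p 0.674), or 0.11 without PKP2_het 3. RPSA, which also serves as a laminin receptor, was at 475, 355, 442 and 346 FPKM against 411, 317, 354 and 252 FPKM, at 0.29 ± 0.18 (SE; limma adjusted p 0.566). RPS27A, a fusion of ubiquitin and a 40S protein, was at 728 ± 167 against 611 ± 117 FPKM (SD, n = 4 each). FAU was at 133 ± 38.8 against 113 ± 23.2 FPKM and RPS19 at 483 ± 124 against 414 ± 96.8 FPKM (SD, n = 4 each). RPS4X, an X-linked member, had a narrow spread, 311 ± 29.6 against 286 ± 27.2 FPKM (SD, n = 4 each; log2 fold change 0.12 ± 0.13 SE).

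Groups of members by position in the ribosome had medians close to each other. The 14 genes of the 40S head were all positive with a median of 0.24, and 16 of 18 genes of the body and platform were positive with a median of 0.22. The 8 genes at the exit tunnel and its rim, where the nascent chain leaves, were all positive with a median of 0.27. In each of these groups 0 genes were called. Without PKP2_het 3 the medians were 0.09 for the head with 13 of 14 positive, 0.11 for the body and platform with 16 of 18 positive, and 0.15 for the exit tunnel and rim with 7 of 8 positive.

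RPS9 separated the groups when set against the other members. RPS9 binds early in 40S assembly and helps shape the decoding region. It was at 337, 264, 429.4 and 253 FPKM in PKP2_het and at 425, 323, 335 and 314 FPKM in WT, which overlapped at the deposited scaling (log2 fold change -0.14 ± 0.19 SE, limma adjusted p 0.776). Divided by the geometric mean of the 82 members in the same library, it was at 0.964, 0.987, 1.03 and 0.954 in PKP2_het and at 1.25, 1.31, 1.25 and 1.33 in WT. All 4 PKP2_het libraries lay below all 4 WT libraries, with means of 0.983 ± 0.0328 and 1.29 ± 0.0417 (SD, n = 4 each). In the limma fit scaled to the members, chosen after seeing the data, RPS9 had a log2 fold change of -0.39 and the only unadjusted p under 0.05 of any member, 0.028, against 9.84% of all genes tested, and its adjusted p was 0.435. Its log2 fold change was negative in every alternative, from -0.41 to -0.04.

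With that scaling 40 members were positive and 42 negative, a near balance that follows from centring on the members. Groups did not overlap for 8 members, 4 in each direction. Across all genes tested 1.32% were then higher and 4.21% lower without overlap. Those higher in PKP2_het were RPL36A, RPLP1, RPL24 and RPL27A, all of the large subunit, and those lower were RPS9, RPL6, RPL7A and RPS12. RPLP1 over the geometric mean was 3.49 ± 0.0863 in PKP2_het and 3.004 ± 0.124 in WT, RPL24 was 1.46 ± 0.0372 against 1.31 ± 0.0947, and RPL6 was 2.06 ± 0.122 against 2.27 ± 0.0559 (SD, n = 4 each). None of the 8 was called, against 0.93% of all genes tested with this scaling, 0.465% in each direction. The shares over all genes at this scaling, also the one given for RPS9, are not a like background. The scaling is fitted to the members and takes out their shared variation, not that of other genes.

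**Figure D4:**
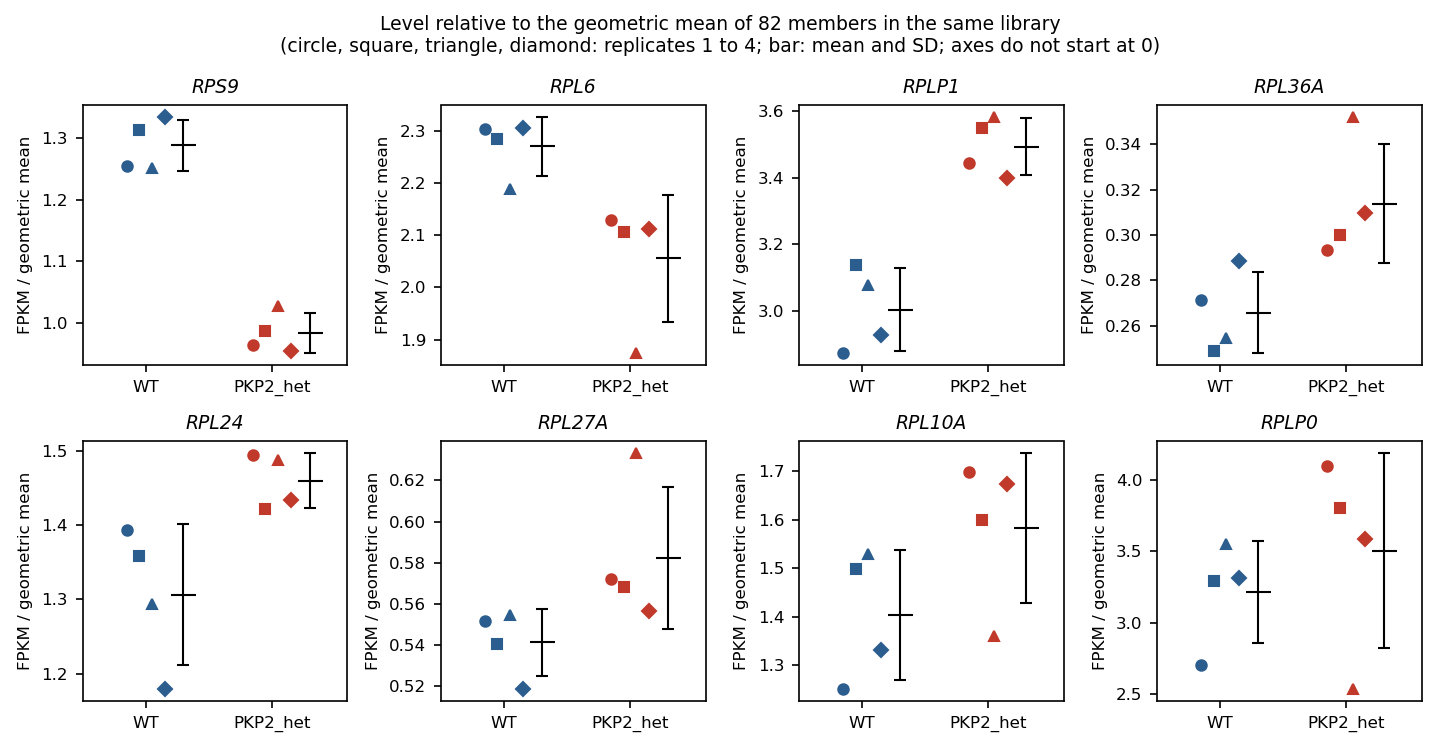
FPKM divided by the geometric mean of the 82 tested ribosomal protein genes in the same library, for single members, with 1 point per library and the 4 PKP2_het beside the 4 WT libraries. RPS9 lies at 0.954 to 1.03 in PKP2_het and 1.25 to 1.33 in WT, and RPLP1 at 3.40 to 3.58 against 2.87 to 3.14.

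RPS21, the other member with a negative log2 fold change when all 8 libraries were used, has a second, intronless row in the table. RPS21 is a small protein of the 40S body. RPS21 on chromosome 17 was at 272, 249, 457 and 222 FPKM in PKP2_het and at 438, 237, 283 and 269 FPKM in WT, with a log2 fold change of -0.05 ± 0.26 (SE; limma adjusted p 0.955). Single libraries set its sign, for it was -0.27 without PKP2_het 3 and positive without PKP2_het 2 (0.02), PKP2_het 4 (0.08) or WT 1 (0.14). The row LOC100518848, annotated as an RPS21 protein gene of 374 bases that equals its genomic span (1167871 to 1168244 on a sequence with no chromosome in RefSeq Sscrofa11.1), was at 95.3, 65.0, 130.1 and 75.6 FPKM in PKP2_het. In WT it was at 21.9, 32.3, 7.36 and 7.23 FPKM. All PKP2_het libraries lay above all WT libraries, with means of 91.5 ± 28.6 and 17.2 ± 12.2 FPKM (SD, n = 4 each), a 5.32-fold ratio.

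This copy was called higher, with a log2 fold change of 2.56 ± 0.45 (SE), a limma adjusted p of 0.0198 and an exact permutation p of 0.0286. The call held in 18 of 24 alternatives, with adjusted p up to 0.0912, and was lost without PKP2_het 1 (0.0748), PKP2_het 4 (0.0501), WT 4 (0.0596) or both PKP2_het 3 and 4 (0.0912), with no filter (0.0603) and with a replicate block (0.0796). The copy took 27.3%, 21.9%, 23.4% and 26.8% of the fragments of both rows in PKP2_het and 5.11%, 12.8%, 2.72% and 2.81% in WT. RPS21 and the copy together averaged 391.7 ± 133 in PKP2_het and 324 ± 91.0 in WT (FPKM, SD, n = 4 each), which overlapped, and over the members' geometric mean at 1.19 ± 0.152 and 1.18 ± 0.125. The sequences of the 2 rows were not compared, and the name copy rests on the annotation. Near-identical copies can exchange fragments in alignment. How the deposited table treated such fragments is not given in the sources used here, so the split between the 2 rows is uncertain.

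Beside the members the table holds 598 other rows annotated as a cytosolic ribosomal protein, LOC100518848 among them. Of these rows 553 are pseudogenes and 16 passed the filter. Fragments of the 598 rows came to between 0.350% and 0.467% of those of the members in each library. Of the tested members, 15 overlap another gene in the table, and the library kit named in the protocol is not described as strand-specific. RPL3L overlaps NDUFB10, a respiratory chain gene at a mean of 194 FPKM on the other strand, as does RPS2, and RPS28 overlaps NDUFA7 at 173 FPKM, so reads of these pairs may not be told apart.

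**Figure D5:**
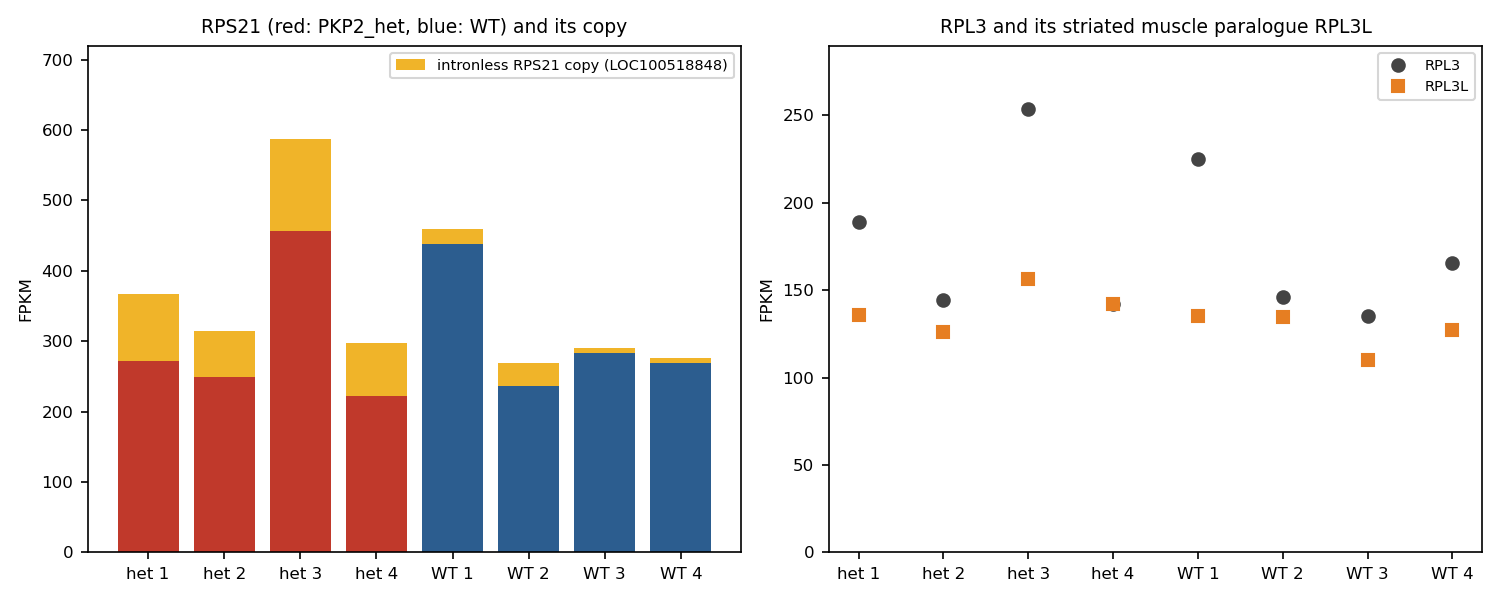
FPKM of RPS21 and its intronless copy, and of RPL3 and RPL3L, in each of the 8 libraries (het 1 to 4 are the PKP2_het libraries). The copy lies between 65.0 and 130.1 FPKM in PKP2_het and between 7.23 and 32.3 FPKM in WT, while RPL3 and RPL3L overlap between the groups.

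RPL3 forms part of the peptidyl transferase centre, and RPL3L is its form in heart and skeletal muscle. RPL3L was at 136, 126, 156 and 142 FPKM in PKP2_het and at 135, 135, 110.1 and 127 FPKM in WT, subject to the overlap with NDUFB10. RPL3 was at 189, 145, 253 and 142 FPKM in PKP2_het and at 225, 146, 135 and 165 FPKM in WT. RPL3 varied with the libraries like other members, whereas RPL3L stayed in a narrower range. RPL3L was 80.1% ± 16.8 of RPL3 in PKP2_het and 77.6% ± 13.4 in WT (SD, n = 4 each). The log2 fold changes were 0.14 ± 0.12 for RPL3L and 0.11 ± 0.22 for RPL3 (SE), with limma adjusted p of 0.67 and 0.862, and without PKP2_het 3 they were 0.09 and -0.07.

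The other paralogues were minor forms in this tissue. RPS27L was 17.8% ± 1.76 of RPS27 in PKP2_het and 18.7% ± 2.49 in WT. RPL22L1 was 6.38% ± 1.06 of RPL22 against 7.06% ± 0.641, and RPL26L1 3.59% ± 0.421 of RPL26 against 3.76% ± 0.564. RPL7L1, a nucleolar relative of RPL7, was 2.10% ± 0.297 of RPL7 against 2.46% ± 0.301 (SD, n = 4 each throughout). Each of these ratios overlapped between the groups.

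Genes that share the start motif, or that build or regulate ribosomes, were described in the same way. Of 20 other TOP messenger RNAs 16 were positive with a median of 0.08. Without PKP2_het 3 their median was 0.11 with 16 positive, beside 0.12 for the members and 0.01 for all genes tested. The only one called was EIF3H, a subunit of initiation factor 3 on chromosome 4 (21955026 to 22053683), at 300.2, 229, 277 and 207 FPKM in PKP2_het and 154, 112, 129 and 115 FPKM in WT. The groups lay apart, with means of 253 ± 42.9 and 127 ± 19.3 FPKM (SD, n = 4 each), a 1.99-fold ratio, a log2 fold change of 0.98 ± 0.16 (SE) and a limma adjusted p of 0.0151. The call was lost with equal library sums (0.628), with scaling to the members (0.0805), without WT 2 and without WT 4 (0.066 and 0.0652). Next in this list by p came EIF3F and HNRNPA1, with log2 fold changes of 0.32 and -0.22 (limma adjusted p 0.421 and 0.477). NPM1, a nucleolar chaperone of the same list, was at 53.8 ± 5.36 against 46.3 ± 2.50 FPKM (SD, n = 4 each; limma adjusted p 0.478).

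EIF3H, called above, is not among the 32 translation initiation factors described next. Of these 32, 14 were positive, with a median of -0.03, and 0 were called, 4 having an unadjusted limma p under 0.05. Without PKP2_het 3 their median was 0.0046 with 17 positive. EIF2B3, part of the guanine nucleotide exchange factor of initiation, had the smallest p, at 8.17 ± 0.666 against 5.64 ± 0.552 FPKM (SD, n = 4 each) with a limma adjusted p of 0.0603, or 0.0499 without PKP2_het 3. Of 50 ribosome biogenesis factors 28 were positive with a median of 0.05, and 12 of 14 genes of RNA polymerase I and its regulators with a median of 0.06, and 0 were called in either list (1 and 3 with an unadjusted limma p under 0.05). Without PKP2_het 3 these medians were 0.06 with 38 of 50 positive and 0.05 with 9 of 14 positive. POLR1D, a subunit shared by RNA polymerases I and III, was at 40.4 ± 6.87 against 29.7 ± 4.72 FPKM (SD, n = 4 each; limma adjusted p 0.263). Regulators of TOP messenger RNAs and mTORC1 had a median of -0.12, with 9 of 22 positive and 0 called. Without PKP2_het 3 their median was -0.06 with 7 of 22 positive. With all 8 libraries an unadjusted limma p under 0.05 was found for 2 of these regulators, DEPTOR and RRAGC. RRAGC was at 11.9 ± 1.94 against 15.1 ± 0.715 FPKM (SD, n = 4 each), with a limma adjusted p of 0.301. DEPTOR, an inhibitor of mTOR, was at 1.31 ± 0.466 against 2.27 ± 0.392 FPKM (SD, n = 4 each; limma adjusted p 0.169), and RPTOR, the defining subunit of mTORC1, at 5.07 ± 0.623 against 6.12 ± 0.450 FPKM (SD, n = 4 each; limma adjusted p 0.409). MLST8, next by p, was positive, at 4.72 ± 0.242 against 4.13 ± 0.321 FPKM (SD, n = 4 each; limma adjusted p 0.519). Without PKP2_het 3 the log2 fold changes of DEPTOR, RRAGC, RPTOR and MLST8 were -0.40, -0.22, -0.16 and 0.16.

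Of the proteasome core 9 of 14 genes were positive with a median of 0.06, and of factors that act on ribosomal proteins or the ribosome 10 of 19 with a median of 0.0048, and 0 were called in both (0 and 1 with an unadjusted limma p under 0.05). Without PKP2_het 3 these medians were 0.02 with 9 of 14 positive and 0.02 with 11 of 19 positive. ZNF622, which helps the 60S subunit mature, was at 13.9 ± 1.00 against 9.42 ± 1.86 FPKM (SD, n = 4 each; limma adjusted p 0.0956).

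Mitochondrial ribosomal proteins, encoded in the nucleus but working in the ribosome of the mitochondrion, had fold changes of both signs. Of 72 tested, 35 were positive and 37 negative with a median of -0.0016, 0 were called and 17 had an unadjusted limma p under 0.05, against 12.8% of all genes tested. Without PKP2_het 3 the median was -0.01 with 34 of 72 positive. MRPS18C was at 6.13 ± 0.858 against 10.3 ± 1.83 FPKM (SD, n = 4 each; limma adjusted p 0.0542, or 0.0234 without PKP2_het 3). MRPL3 was at 34.7 ± 5.83 against 21.8 ± 3.01 FPKM (SD, n = 4 each; limma adjusted p 0.0872, or 0.012 without PKP2_het 3). Their median deviation stayed within -0.15 to 0.10 in all 8 libraries, compared with -0.33 to 0.52 for the cytosolic genes.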

How the data were processed

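RNA of right ventricular tissue was sequenced as paired 150-base reads and, per the labels' protocols, the alignment used HISAT2 2.0.5. For the counting program, the annotation and the normalisation, the tool or version is not given in the sources used. The table the authors deposited holds FPKM values for 30550 genes and 8 libraries, and FPKM times gene length gave whole fragments for 100% of values within 0.01 fragments. The deposited library factors matched median-of-ratios factors over 15715 genes. Coordinates of all 84 members equal those of RefSeq Sscrofa11.1.

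Genes reaching 1 FPKM in 4 or more libraries were tested as log2(FPKM + 1), a log2 scale computed here from the deposited values, with limma 3.58.1 (R 4.3.3), a variance trend and no replicate term. The p-values are two-sided, and their Benjamini-Hochberg adjustment covers 10757 genes. The pseudocount of 1 understates changes of low genes. Single members also had an exact permutation test over 70 relabellings. The fit was tested on simulated data with fold changes larger than the members', where false calls were somewhat more frequent than the threshold.

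Members, lists and tests were chosen with earlier results of these data known. Genes named are the P stalk, 5S particle and paralogue genes; the 5 smallest p and the 5 largest and 5 smallest fold changes; the 3 highest and 3 lowest levels of each subunit; untested members; RPS6, RPSA, FAU, RPS27A, RPS4X and RPS19; and up to 4 genes by p in other lists. RPL15, RPL24 and RPL27A, RPL6, RPL7A and RPS12 among relative levels, and LOC100518848, were named after their values were seen. A gene that the rule on levels names is not reported here, and the plots of single genes leave it out. List entries matched by symbol in 397 cases, and 6 had no match. Alternatives covered pseudocounts of 0.1 and 0.5, filters, scalings, voom, library weights, a replicate term, a length trend and leaving out libraries. Scaling to the members and leaving out PKP2_het 3 with WT 1 were added after seeing the data.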

Additional observations from a re-analysis of the deposited data

Results flagged for a closer look

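Dixon's ratio was applied to 100 groups of 4 libraries and exceeded its 95% critical value in 3 of them, where chance gives about 1 in 20. RPL26, a large subunit protein at the rim of the exit tunnel, was at 509.9 FPKM in WT replicate 1 against 326.4 to 345.2 FPKM in the other WT libraries. RPLP2 of the P stalk was at 606.0 FPKM in WT replicate 1 against 425.2 to 438.2 FPKM in the others. WT replicate 1 was the highest WT library for 79 of the 82 members. The members' share of all FPKM was 6.11% in WT replicate 3 against 4.83% to 5.04% in the other WT libraries.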

How the results depend on the processing

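In all 24 alternatives 0 members were called, and the lowest adjusted p of any member was 0.149. The members' median log2 fold change was positive in 21 of 22 alternatives. With libraries rescaled to equal sums it was -0.027, and with equal sums of nuclear genes alone it was 0.17. Without single libraries it lay between 0.12 (without PKP2_het replicate 3) and 0.35 (without WT replicate 1), and it was 0.22 without both, 0.13 with quantile normalisation and 0.13 with library quality weights. The labels do not say whether libraries of the same replicate number were paired. Deviations of same-numbered libraries correlated at -0.39, 0.03, -0.23 and 0.20, which cannot settle it. With a replicate block the median was 0.24 with 0 members called, and 105 genes were called overall against 200 without the block. The number of genes called overall ran from 88 (at least 5 FPKM) to 659 (quality weights), with 95 for equal sums, 314 without PKP2_het replicate 3, 132 without PKP2_het replicate 1, 119 and 115 without WT replicates 2 and 4, and 100 scaled to the members. The large-to-small ratio in PKP2_het over that in WT was 1.04 with all libraries and members, and lay between 1.03 and 1.06 in 12 alternatives (libraries left out, the 3 highest members of each subunit left out, quantile normalisation). Library factors such as TMM cancel in it. The count-based tests planned as alternatives were not run because the deposited unit is FPKM. With 4 libraries a group, differences of the size seen here, up to 0.48 on the log2 scale, had standard errors near 0.2.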
